A study of Homo sapiens with 18 samples.

Results

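The genes described here are 10 components of the Notch pathway: the receptors NOTCH1, NOTCH2 and NOTCH3, the ligands JAG1, JAG2 and DLL1, and the target genes HES1, HES4, HEY1 and NRARP. They were taken by NCBI Gene ID from a table of 28395 Gene IDs, and all 10 passed the filter on low counts, which kept 15189 genes. Notch receptors sit in the membrane and are bound by ligands of the Jagged and Delta-like families on a neighbouring cell. Binding leads to cleavage of the receptor, and the released intracellular part enters the nucleus, where it joins the DNA-binding protein RBPJ and turns on genes of the HES and HEY families, which encode transcriptional repressors. In prostate tissue the pathway is known for a part in epithelial differentiation and in tumour growth.

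PC-3 is a human prostate cancer line grown from a bone metastasis, and these data come from that line only. Sheared cells were detached and passed as a suspension through a syringe and a 30 gauge needle at 250 µL per second, which exposes them briefly to fluid shear stress, and static cells were detached in the same way and waited in suspension. Both were kept in DMEM with insulin, transferrin, selenium and 5 mg/mL bovine serum albumin, in wells whose poly-HEMA coating prevents attachment, and were collected 3 h, 12 h or 24 h after exposure. Static cells therefore also lacked attachment, and by the labels the groups differ in the passage through the needle. RNA of the cytosolic fraction was sequenced from 3 sheared and 3 static libraries per time, 18 in all. By the series' design text, the sheared and static cells of 1 replicate at 1 time were drawn from the same pool, and different times are independent; libraries were paired accordingly, in 9 pools. The series asks how brief shear changes the cells; within it, the comparison addresses whether the Notch genes differ between sheared and static cells at each time.

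Libraries held between 16400487 and 25862360 counts. Epithelial keratins and adhesion genes (5 markers) summed to 3262 to 9333 CPM (counts scaled to a common library total with TMM factors), while the prostate genes KLK3 and KLK2 had a median count of 0. The sheared 24 h replicate 3 library stood apart, with a TMM factor of 0.721, 17007 genes detected and 406 CPM of the nuclear RNA NEAT1. The 3 h libraries carried another batch date in the labels than the later ones, so for levels at 3 h against later times the batch and the time cannot be told apart. The shear comparisons lie within a time and are not touched by this.

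At 3 h, 2 of the 10 Notch genes passed an adjusted p of 0.05 (edgeR), HES4 and NRARP, both higher in sheared cells, against 1.46% of all genes tested (1.12% higher and 0.342% lower). At 12 h, 5 of 10 passed, against 10.8% of all genes: JAG2 and HES4 rose (6.29% of all genes rose), and JAG1, NOTCH2 and HEY1 fell (4.55% fell). At 24 h HES4 alone rose, 1 of 10 against 17.2% of all genes (9.13% rose and 8.07% fell). The 10 genes were chosen with earlier results of these data known, so these counts support nothing about the pathway as a whole. As this is bulk RNA, fewer cells that express a gene and less RNA per cell cannot be told apart in these values. The median log2 fold change of the 10 genes was -0.07, -0.05 and 0.03 at 3 h, 12 h and 24 h, beside 0.01, -0.01 and -0.02 over all genes. The Notch genes thus did not move together in 1 direction at any time. Without the pools as a block, every one of these calls was lost except that of JAG2 at 12 h. Scaling by total counts in place of TMM factors shifted the median of all genes to -0.16 at 12 h and -0.18 at 24 h and the share of higher genes among all called to 22.8% and 24.5%, against 58% and 53.1%; HES4 and JAG2 stayed higher and JAG1, NOTCH2 and HEY1 lower at 12 h under it, past the threshold.

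**Figure D1:**
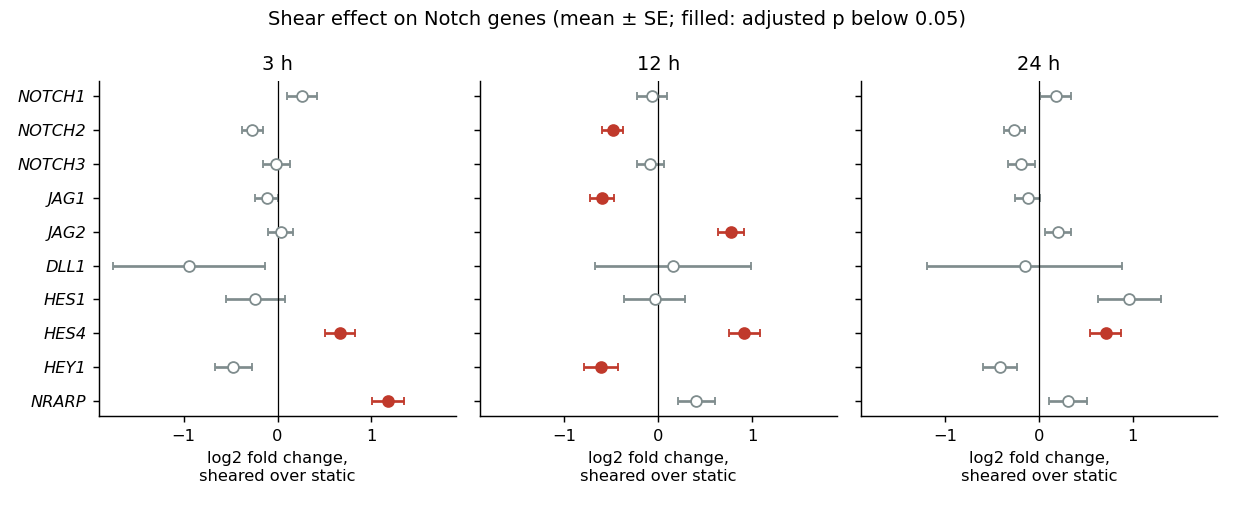
Log2 fold change of sheared over static cells (x axis) for each of the 10 Notch genes (y axis) at 3 h, 12 h and 24 h. Points are estimates, bars are 1 SE, and filled points passed an adjusted p of 0.05: HES4 and NRARP at 3 h, 5 genes at 12 h and HES4 alone at 24 h.

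Among the ligands, JAG1 and JAG2 moved in opposite directions at 12 h, and none of JAG1, JAG2 and DLL1 passed the threshold at 3 h or 24 h. JAG2 (chromosome 14, 105140981 to 105168824 in GRCh38) encodes a Jagged ligand of Notch receptors. At 12 h it had 52.8, 73.8 and 69.1 CPM in sheared cells, against 36.8, 35.5 and 41.6 CPM in static cells. Every sheared library stood above every static one, in 3 of 3 pairs, and JAG2 rose by 0.77 ± 0.14 on the log2 scale (SE, adjusted p = 0.00211, edgeR). At 3 h the levels were close, at 61.6 ± 4.82 CPM in sheared and 60.1 ± 3.55 CPM in static cells (SD, n = 3 each), and at 24 h they were 50.3 ± 8.69 CPM in sheared and 43.8 ± 7.22 CPM in static cells. The shear effects at those times were 0.03 (95% interval -0.23 to 0.30) and 0.20 (-0.07 to 0.47). Leaving out 12 h replicate 2, the pair with the highest sheared level, gave an adjusted p of 0.0535 for JAG2 at 12 h, with a log2 fold change of 0.63.

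JAG1 (chromosome 20, 10637684 to 10673999) encodes the other Jagged ligand. At 12 h it had 32.0, 41.6 and 32.3 CPM in sheared cells, against 51.4, 57.0 and 51.2 CPM in static cells. The groups did not overlap, and JAG1 fell by 0.60 ± 0.13 on the log2 scale (SE, adjusted p = 0.00644, edgeR, lower in 3 of 3 pairs); without 12 h replicate 1 the adjusted p was 0.0656. The level at 3 h was 120 ± 22.6 CPM in sheared and 130 ± 23.4 CPM in static cells, and at 24 h 28.0 ± 9.07 CPM in sheared and 29.7 ± 6.24 CPM in static cells (SD, n = 3 each). Shear effects at 3 h and 24 h were -0.12 ± 0.12 and -0.12 ± 0.13 and did not pass. JAG1 shares exon positions with an antisense gene, AL050403.2, and JAG2 with AL512356.1 on its own strand. The strand setting of the counting is not given in the sources used here, so reads from AL050403.2 cannot be told apart from those of JAG1. Reads from the exon positions that AL512356.1 shares with JAG2 cannot be told apart from those of JAG2 at any strand setting.

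The opposite changes showed in the ratio of the ligands within a library, which does not depend on library size. As levels per kb of exon, JAG1 over JAG2 had a log2 ratio between -1.64 and -1.26 in sheared cells at 12 h, against -0.24 to 0.15 in static cells. JAG2 thus exceeded JAG1 in each sheared 12 h library, while in static cells the pair stood near parity. At 3 h both groups had the ratio above 0 (0.18 to 0.65 sheared, 0.34 to 0.67 static), and at 24 h both had it below 0 (-2.29 to -0.88 sheared, -1.52 to -0.56 static), with overlapping ranges. The 12 h ratio in sheared cells lay within the range that sheared cells showed at 24 h.

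DLL1 (chromosome 6, 170282206 to 170306565) encodes a Delta-like ligand and was nearly absent. It had 0 to 17 counts per library; the sheared 3 h replicate 3 library had 0, where 3 counts would be 0.115 CPM. Its mean was 0.26, 0.43 and 0.22 CPM in sheared cells at 3 h, 12 h and 24 h, against 0.48, 0.38 and 0.25 CPM in static cells. At this depth a shear effect was not detectable: the 95% intervals of the log2 fold change ran from -2.53 to 0.64 at 3 h and from -2.19 to 1.88 at 24 h.

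**Figure D2:**
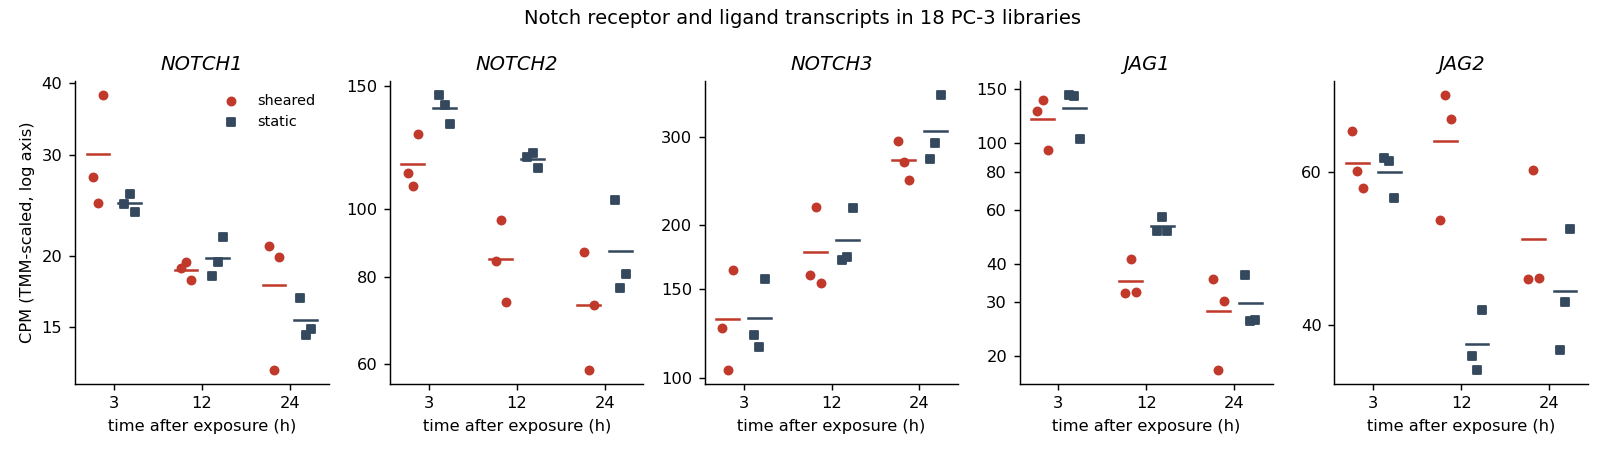
CPM (log axis) of the 3 receptors and of JAG1 and JAG2 in each of the 18 libraries by hours after exposure; circles are sheared and squares static libraries, and bars are group means of 3. At 12 h all sheared libraries lie below all static ones for NOTCH2 and JAG1 and above them for JAG2.

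Of the receptors, NOTCH2 fell at 12 h, and NOTCH1 and NOTCH3 passed at no time. NOTCH2 (chromosome 1, 119911553 to 120069626) had 84.2, 96.7 and 73.6 CPM in sheared cells at 12 h, against 118.8, 120.3 and 114.6 CPM in static cells. The groups did not overlap, and NOTCH2 fell by 0.48 ± 0.11 on the log2 scale (SE, adjusted p = 0.00975, edgeR). The adjusted p was 0.0738 without 12 h replicate 1 and 0.0739 without 12 h replicate 3. It was lower in the sheared library of each pair at all 3 times, with effects of -0.27 ± 0.11 at 3 h (adjusted p = 0.401) and -0.26 ± 0.11 at 24 h (adjusted p = 0.114) that did not pass. At 3 h the groups were also apart, at 108.1 to 128 CPM in sheared and 132.3 to 145.9 CPM in static cells.

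NOTCH2 has 3 near-identical partial copies in the count table, NOTCH2NLA, NOTCH2NLB and NOTCH2NLR, and how reads that match several of them were assigned is not given in the sources used here. NOTCH2NLA rose at 12 h, with 81.9, 121.7 and 119.2 CPM in sheared cells against 67.1, 66.0 and 86.3 CPM in static cells, a log2 difference of 0.55 ± 0.14 (SE; edgeR adjusted p = 0.0175, and 0.38 with 0.235 without 12 h replicate 2). The sum of NOTCH2 and its 3 copies at 12 h was 234 ± 26.0 CPM in sheared and 230 ± 9.64 CPM in static cells (SD, n = 3 each). The groups overlapped in that sum, which was not tested, and the value for NOTCH2 itself is uncertain to the extent that reads were divided between these genes.

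NOTCH3 (chromosome 19, 15159038 to 15200981) was the most abundant receptor per kb of exon in all 6 groups, with NOTCH2 taken without its copies. Before scaling by exon length, the mean of NOTCH2 was above that of NOTCH3 only in static cells at 3 h, at 140 ± 6.88 CPM. NOTCH3 had 131 ± 30.3, 177 ± 34.9 and 269 ± 23.7 CPM in sheared cells at 3 h, 12 h and 24 h, against 131 ± 22.6, 187 ± 25.4 and 308 ± 48.4 CPM in static cells (SD, n = 3 each). Shear effects were -0.02 ± 0.14, -0.09 ± 0.14 and -0.19 ± 0.14 and did not pass. NOTCH1 (chromosome 9, 136494433 to 136545786) had 30.1 ± 7.12, 18.9 ± 0.68 and 17.8 ± 4.47 CPM in sheared cells, against 24.7 ± 0.90, 19.8 ± 1.59 and 15.4 ± 1.26 CPM in static cells. Its effects were 0.26 ± 0.16, -0.07 ± 0.16 and 0.18 ± 0.17 and did not pass at any time.

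Among the targets, NRARP showed the largest shear effect of the 10 genes at 3 h. NRARP (chromosome 9, 137300482 to 137302251) encodes a short ankyrin-repeat protein that is induced by Notch signalling and dampens it. At 3 h it had 147.6, 126.9 and 163 CPM in sheared cells, against 58.2, 52.7 and 86.4 CPM in static cells. Each sheared library stood above each static one, and NRARP rose by 1.18 ± 0.17 on the log2 scale (SE, adjusted p = 0.000886, edgeR), with 1.34, 1.27 and 0.92 in the 3 pairs. NRARP at 3 h still passed when any 1 pair was left out, with effects of 1.09 to 1.31 over all alternatives.

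NRARP did not pass at the later times, when its level was far lower in both groups. In that lower level batch and time cannot be told apart. It had 9.01, 10.3 and 15.6 CPM in sheared cells at 12 h, against 8.00, 8.24 and 9.63 CPM in static cells, an effect of 0.41 ± 0.19 (adjusted p = 0.193, edgeR). At 24 h it had 13.7, 5.54 and 15.3 CPM in sheared and 10.5, 7.71 and 8.09 CPM in static cells, an effect of 0.31 ± 0.20 (adjusted p = 0.310). The 24 h value depended on replicate 2, the pair in which sheared cells were lower: without it the effect was 0.64 with an adjusted p of 0.0227. The effect at 24 h minus that at 3 h was -0.87 ± 0.26 (adjusted p = 0.0637), so a difference between those times was not shown by this test.

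HES4 was the gene that rose at all 3 times. HES4 (chromosome 1, 998962 to 1000172) encodes a basic helix-loop-helix repressor of the HES family. It had 99.6, 70.3 and 85.5 CPM in sheared cells at 3 h, against 48.6, 47.5 and 65.4 CPM in static cells, and at 12 h 67.1, 80.1 and 65.6 CPM in sheared cells, against 40, 29.4 and 44.4 CPM in static cells. The groups did not overlap at either time, and HES4 rose by 0.66 ± 0.16 at 3 h (SE, log2 scale, adjusted p = 0.0482, edgeR) and by 0.92 ± 0.16 at 12 h (adjusted p = 0.00234).

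At 24 h the levels of HES4 were 69.7, 84.8 and 154.8 CPM in sheared cells, against 47.8, 57.3 and 76.8 CPM in static cells. The ranges overlapped, but the sheared library was higher in 3 of 3 pairs, by 0.55, 0.56 and 1.01, and the effect was 0.71 ± 0.16 (SE, adjusted p = 0.00613, edgeR). Leaving out replicate 3, whose sheared library stood apart from the rest, gave 0.57 with an adjusted p of 0.047. The 3 h call was the least secure: its adjusted p was 0.68, 0.281 and 0.106 without 3 h replicate 1, 2 or 3, 0.07 without 12 h replicate 1 and 0.0724 without 24 h replicate 1. At 12 h it was 0.056 without 12 h replicate 2.

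HES1 (chromosome 3, 194136145 to 194138732), the best known target of the pathway, passed at no time. It had 149.3, 130.7 and 207 CPM in sheared cells at 3 h, against 170.9, 150.3 and 256.2 CPM in static cells, and at 12 h 123.6, 104 and 59.2 CPM in sheared cells, against 97.4, 92.2 and 92.3 CPM in static cells. The groups overlapped at both times, with effects of -0.23 ± 0.32 and -0.04 ± 0.32 that did not pass.

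At 24 h HES1 had 140.1, 72.1 and 556.6 CPM in sheared cells, against 73.7, 73.8 and 143.6 CPM in static cells. One library, sheared replicate 3, held the highest value of all 18, and the effect of 0.96 ± 0.33 (SE) missed the threshold with an adjusted p of 0.0855 (edgeR). It was 0.47 (adjusted p = 0.283) without that pair and 1.45 (adjusted p = 0.00146) without replicate 2, in which the libraries were level. It also passed with DESeq2 (0.96, adjusted p = 0.044) and in edgeR with no filter on low counts (0.95, adjusted p = 8.1e-11). The effect itself was almost the same in these runs as in the main fit. Their lower adjusted p therefore shows no larger difference between the groups. The 3 pairs differed by 0.93, -0.03 and 1.95.

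HEY1 encodes a repressor related to the HES proteins, and fell at 12 h. It had 34.6, 26.9 and 22.1 CPM in sheared cells, against 41.8, 41.3 and 42.6 CPM in static cells. The groups did not overlap, and HEY1 fell by 0.61 ± 0.18 on the log2 scale (SE, adjusted p = 0.0376, edgeR). HEY1 averaged 7.25 ± 0.21 CPM in sheared and 10.5 ± 4.48 CPM in static cells at 3 h, and 29.1 ± 6.91 CPM in sheared and 38.8 ± 8.57 CPM in static cells at 24 h (SD, n = 3 each); the shear effects at these times, -0.47 ± 0.20 and -0.41 ± 0.18, did not pass. The 12 h call was lost without 12 h replicate 1, 2 or 3 (adjusted p = 0.0596, 0.207 and 0.219), without 3 h replicate 1 (0.058) and without 24 h replicate 1 (0.0509).

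**Figure D3:**
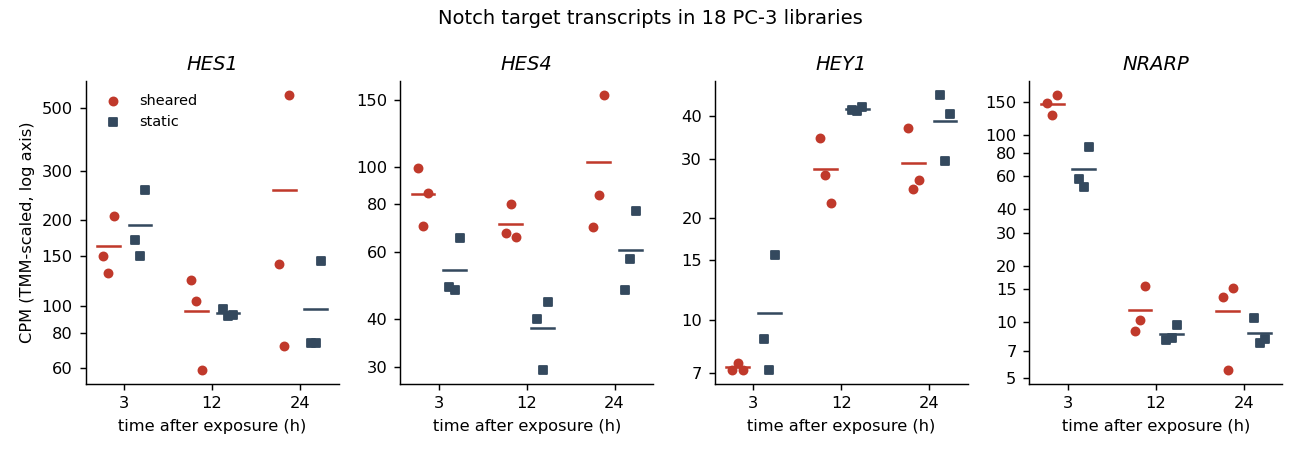
CPM (log axis) of the 4 target genes in each of the 18 libraries by hours after exposure; circles are sheared and squares static libraries, and bars are group means of 3. NRARP and HES4 at 3 h and HES4 at 12 h lie higher in every sheared library, HEY1 at 12 h lies lower, and 1 sheared HES1 library at 24 h stands at 556.6 CPM.

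Since HES4 and NRARP rose and HES1 did not pass, their promoters are shown side by side. RefSeq promoter windows (GRCh38.p14, 250 bases before to 50 bases after the start) were used for 8 of the 10 genes, without DLL1 and HEY1. They were searched on both strands for TGGGAA, the core of the RBPJ binding motif (TTCCCA on the other strand). HES1 held 2 matches, which begin 84 and 70 bases before the start, and HES4 held 1, which begins 76 bases before it. NOTCH1, NOTCH2, NOTCH3, JAG1, JAG2 and NRARP held none in this window. Of all 35116 windows, 24% held at least 1 match and 3.8% at least 2. The longer GTGGGAA, which contains the core, was found once each in HES1 and HES4 and in 6.25% of all windows. Capitals mark TGGGAA in the windows of HES4 (chr1:1000048-1000347, minus strand), HES1 (chr3:194135898-194136197, plus strand) and NRARP (chr9:137302222-137302521, minus strand), each written 5′ to 3′:
HES4: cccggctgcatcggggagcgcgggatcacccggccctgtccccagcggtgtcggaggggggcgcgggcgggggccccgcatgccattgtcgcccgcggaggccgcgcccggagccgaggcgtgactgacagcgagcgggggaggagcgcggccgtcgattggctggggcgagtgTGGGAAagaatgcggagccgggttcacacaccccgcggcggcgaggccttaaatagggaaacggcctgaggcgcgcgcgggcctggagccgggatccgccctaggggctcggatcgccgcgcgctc
HES1: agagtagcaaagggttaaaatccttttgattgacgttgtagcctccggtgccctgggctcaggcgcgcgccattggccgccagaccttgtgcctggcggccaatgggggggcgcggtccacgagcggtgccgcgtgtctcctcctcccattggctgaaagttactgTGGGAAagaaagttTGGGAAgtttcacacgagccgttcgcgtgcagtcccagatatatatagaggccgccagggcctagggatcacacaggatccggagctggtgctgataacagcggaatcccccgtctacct
NRARP: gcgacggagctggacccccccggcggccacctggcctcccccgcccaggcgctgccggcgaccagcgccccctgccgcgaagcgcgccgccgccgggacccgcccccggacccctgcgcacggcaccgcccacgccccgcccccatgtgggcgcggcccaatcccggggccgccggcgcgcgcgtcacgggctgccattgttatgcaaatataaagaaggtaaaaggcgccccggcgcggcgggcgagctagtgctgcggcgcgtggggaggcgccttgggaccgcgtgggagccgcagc

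Among these 3 targets, HES4 with 1 match rose at each time, HES1 with 2 passed at no time, and NRARP with none rose at 3 h. A match is a stretch of letters only, and no match says only that these letters are not in this window.

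The ratio of HES4 to HES1 within a library, per kb of exon, set the targets against each other without library size. At 3 h its log2 value was -0.39 to 0.30 in sheared and -1.09 to -0.78 in static cells, and at 12 h it was 0.00 to 1.03 in sheared and -0.77 to -0.17 in static cells. The groups were apart at both times, with HES4 nearer to or above HES1 in sheared cells. At 24 h the sheared values ran from -0.96 to 1.12 and enclosed the static range of -0.02 to 0.52. The ratio of NOTCH3 to NOTCH2, taken without the copies of NOTCH2, was higher at each later time in both groups. Its means were 0.99, 1.9 and 2.74 in sheared and 0.74, 1.5 and 2.67 in static cells. For 3 h against the later times, batch and time cannot be told apart.

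**Figure D4:**
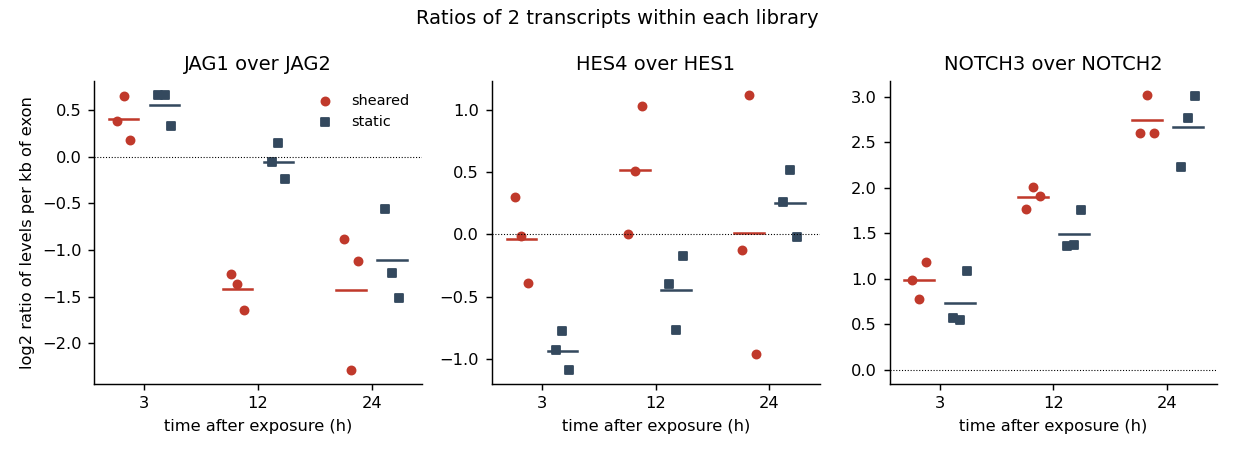
Log2 ratio of levels per kb of exon (y axis) for JAG1 over JAG2, HES4 over HES1 and NOTCH3 over NOTCH2 in each of the 18 libraries by hours after exposure; circles are sheared and squares static libraries, bars are means of 3 and the dotted line marks equal levels. JAG1 over JAG2 separates the groups at 12 h, and HES4 over HES1 at 3 h and 12 h.

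Per kb of exon, the order of levels in sheared cells at 3 h was NRARP (82.4 ± 10.2 CPM per kb), HES1 (78.7 ± 19.3) and HES4 (76.1 ± 13.1), whose ranges overlapped, then NOTCH3 (13.9 ± 3.22), JAG1 (12.9 ± 2.43), JAG2 (9.62 ± 0.75), NOTCH2 (6.92 ± 0.62), NOTCH1 (2.90 ± 0.69), HEY1 (2.24 ± 0.06) and DLL1 (0.08 ± 0.08) (SD, n = 3). In static cells at 3 h HES1 came first (93.3 ± 27.2 CPM per kb), apart from HES4 (48.2 ± 8.97) and NRARP (37.2 ± 10.2), which overlapped. At 12 h and 24 h HES4 and HES1 led in both groups, followed by NOTCH3; their ranges overlapped each other in sheared cells at both times, and in static cells at 24 h, when that of HES1 also met that of NOTCH3. From JAG2 down to JAG1 the sheared ranges at 12 h overlapped from each gene to the next (JAG2, HEY1, NRARP, NOTCH2 and JAG1), and so did those from HEY1 down to NOTCH1 at 24 h. At 12 h NRARP stood at 6.57 ± 1.98 CPM per kb in sheared and 4.87 ± 0.50 in static cells. HEY1 stood at 8.62 ± 1.94 in sheared and 12.97 ± 0.20 in static cells. Against the levels at 3 h, batch and time cannot be told apart. NOTCH1 was the lowest gene above DLL1 at 12 h and 24 h, with 1.82 ± 0.07 and 1.71 ± 0.43 CPM per kb in sheared and 1.91 ± 0.15 and 1.49 ± 0.12 in static cells.

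None of the 10 genes had a shear effect that differed between times past the threshold (edgeR). For 12 h minus 3 h, 3 had an unadjusted p below 0.05 and DESeq2 called 1 (JAG2), against 1.41% of all genes called by edgeR. For 24 h minus 12 h, 2 had an unadjusted p below 0.05 and DESeq2 called 0, against 0.665%. For 24 h minus 3 h, 2 had an unadjusted p below 0.05 and DESeq2 called 1 (NRARP), against 5.89%. JAG2 came nearest in the first contrast, with an effect at 12 h minus that at 3 h of 0.74 ± 0.19 (SE, adjusted p = 0.0681, edgeR). A gene that passed at 1 time and not at another is therefore not shown to differ between them.

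Between 12 h and 24 h, which share a batch date, static cells changed in 4 of the 10 Notch genes, 2 in each direction, against 32.5% of 14804 genes (16.9% higher and 15.6% lower at 24 h). NOTCH3 rose at 24 h by 0.71 ± 0.15 (SE, adjusted p = 0.00208, edgeR) and HES4 by 0.67 ± 0.19 (adjusted p = 0.013). JAG1 fell by 0.85 ± 0.16 (adjusted p = 0.000931) and NOTCH2 fell by 0.45 ± 0.13 (adjusted p = 0.0132). The 24 h libraries of these genes did not overlap the 12 h ones. For NOTCH2 this holds without its 3 copies. The sum of NOTCH2 and the copies in static cells was 223.5 to 241 CPM at 12 h and 177.5 to 235.1 CPM at 24 h. Those ranges overlapped, and the sum was not tested. NOTCH2 lost the call without static 12 h replicate 1 (adjusted p = 0.0528) or 2 (0.0525), and HES4 without static 12 h replicate 2 (0.0788) or static 24 h replicate 3 (0.0836). NOTCH1 fell by 0.37 ± 0.14 and just missed the threshold (adjusted p = 0.0507, edgeR), although its 12 h and 24 h libraries did not overlap. It passed with DESeq2 (adjusted p = 0.0436) and in edgeR with RLE factors (adjusted p = 0.0498). Each of these settings called 5 of the 10 genes.

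In sheared cells 0 of 10 changed between 12 h and 24 h past the threshold (edgeR), against 2.55% of 14672 genes. Of them 2 had an unadjusted p below 0.05, NOTCH3 (0.59 ± 0.21) and HES1 (1.42 ± 0.58), and DESeq2 called 0. Without sheared 24 h replicate 2, HES1 passed (1.87, adjusted p = 0.0336), and without sheared 24 h replicate 3 its value was 0.15. Whether sheared and static cells differ in this change is the contrast of 24 h minus 12 h above, in which 0 of 10 passed.

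Beyond the 10, 52 further genes of the pathway were listed by role, of which 47 were tested. At 3 h 0 passed (edgeR; 2 had an unadjusted p below 0.05 and DESeq2 called 0), at 12 h 2 were higher and 4 lower, and at 24 h 4 were higher and 7 lower. Over all genes 10.8% were called at 12 h and 17.2% at 24 h, so calls were about as frequent in this list as in general, and the counts are no result about the pathway. The medians of their shear effects were 0.05, -0.07 and -0.13 at 3 h, 12 h and 24 h. Named here are the 12 with the smallest p among those that passed.

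Of 4 ligand ubiquitin ligases, 1 rose at 12 h and 2 at 24 h, against 6.29% and 9.13% of all genes. NEURL1B, a Neuralized ubiquitin ligase that promotes ligand uptake, had 26.3, 34.2 and 17.1 CPM in sheared cells at 12 h, against 13.2, 12.9 and 13.3 CPM in static cells, a rise of 0.92 ± 0.22 (SE, adjusted p = 0.0142, edgeR). At 24 h it had 6.80, 4.23 and 27.4 CPM in sheared and 2.28, 2.57 and 5.73 CPM in static cells, a rise of 1.61 ± 0.27 (adjusted p = 0.000499) with overlapping ranges. Its relative NEURL1 rose at 24 h, with 15.6, 18.7 and 10.5 CPM in sheared cells against 8.68, 9.41 and 8.29 CPM in static cells (0.73 ± 0.19, adjusted p = 0.0138). MIB1 and MIB2, of the same role, did not pass. DLL3, a Delta-like protein that binds Notch within the cell, rose at 24 h by 0.69 ± 0.20 (adjusted p = 0.0228), with 5.51, 8.94 and 6.22 CPM in sheared and 3.35, 6.31 and 3.33 CPM in static cells; it was higher in each pair, although the ranges overlapped.

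Of 9 tested genes for the proteases that cleave the receptor or their subunits, 2 fell at 12 h and 3 at 24 h. Over all genes 4.55% and 8.07% fell. Of the 5 calls in this role, 3 lay close to the threshold. NCSTN, the nicastrin subunit of gamma-secretase, had 40.9, 34.8 and 35.7 CPM in sheared cells at 12 h, against 57.7, 51.5 and 52.7 CPM in static cells (-0.54 ± 0.12, adjusted p = 0.0105, edgeR). FURIN, the convertase that cuts the Notch precursor, had 184, 171.9 and 161.4 CPM in sheared cells at 24 h, against 245.2, 291.7 and 252.6 CPM in static cells (-0.61 ± 0.12, adjusted p = 0.00206). Groups did not overlap for either gene. Those 3 were ADAM17 at 12 h (-0.38) and 24 h (-0.39) and PSEN2 at 24 h (-0.41), with adjusted p = 0.0488, 0.0353 and 0.0466; they lie outside the 12 and are named because the count is small.

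In the nuclear complex, the coactivator gene EP300 fell at 12 h, with 43.5, 43.3 and 42.4 CPM in sheared cells against 64.6, 70.5 and 62.8 CPM in static cells (-0.62 ± 0.11, adjusted p = 0.00286, edgeR). MAML3, a Mastermind coactivator that binds the Notch and RBPJ complex, fell at 24 h to 11.4, 8.11 and 4.53 CPM in sheared cells, against 15.3, 12.9 and 12.1 CPM in static cells (-0.80 ± 0.19, adjusted p = 0.00811). RBPJ itself, MAML1, MAML2 and SNW1 did not pass. Of 8 repressor complex genes 0 passed at any time (edgeR; 1, 1 and 2 had an unadjusted p below 0.05 at 3 h, 12 h and 24 h, and DESeq2 called 0). Of 5 sugar-modifying enzymes 0 passed either (0, 1 and 2 unadjusted; DESeq2 called 1, at 24 h).

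Genes listed as regulators of the receptor differed in both directions, and whether they act on Notch in these cells was not tested. DTX3L, a Deltex-family ubiquitin ligase, had the smallest p of the 52 genes, falling by 0.86 ± 0.15 at 12 h (adjusted p = 0.00169, edgeR) and by 1.24 ± 0.15 at 24 h (adjusted p = 2.11e-05). At 24 h it had 42.0, 41.9 and 27.4 CPM in sheared cells, against 76.8, 106.8 and 77.4 CPM in static cells, with no overlap. DTX4, of the same family, fell at 24 h by 0.63 ± 0.17 (adjusted p = 0.0144), with 63.2, 54.6 and 25.6 CPM in sheared and 69.1, 76.2 and 64.5 CPM in static cells. ITCH, a ubiquitin ligase for which Notch is a known substrate, rose at 24 h by 0.58 ± 0.16 (adjusted p = 0.0219); it had 136.7, 51.5 and 202.6 CPM in sheared and 89.5, 54.1 and 90.8 CPM in static cells, higher in 2 of 3 pairs.

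HES7 and HES2, further genes of the HES family, passed at 1 time each. HES7 was scarce and rose at 12 h, with 2.53, 3.09 and 2.79 CPM in sheared cells against 0.72, 0.99 and 1.49 CPM in static cells (1.42 ± 0.41, adjusted p = 0.0354, edgeR). HES2 fell at 24 h, with 54.9, 47.5 and 34.4 CPM in sheared cells against 64.8, 66.9 and 57.6 CPM in static cells (-0.49 ± 0.12, adjusted p = 0.0117).

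Several of these calls rested on single pairs. Without 24 h replicate 3, the 24 h calls of DTX4 (-0.29), ITCH (0.30), PSEN2 (-0.22), MAML3, HES2, DLL3 and ADAM17 were lost and 5 of 47 genes passed. Without 24 h replicate 1, those of NEURL1, DLL3, ITCH, ADAM17 and PSEN2 were lost, and 7 passed. At 12 h, 2 of 47 passed without replicate 1 and 2 without replicate 2; NCSTN, NEURL1B, HES7 and ADAM17 were lost in both. DTX3L at 12 h and 24 h, and FURIN and NEURL1B at 24 h, passed in every alternative run.

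**Figure D5:**
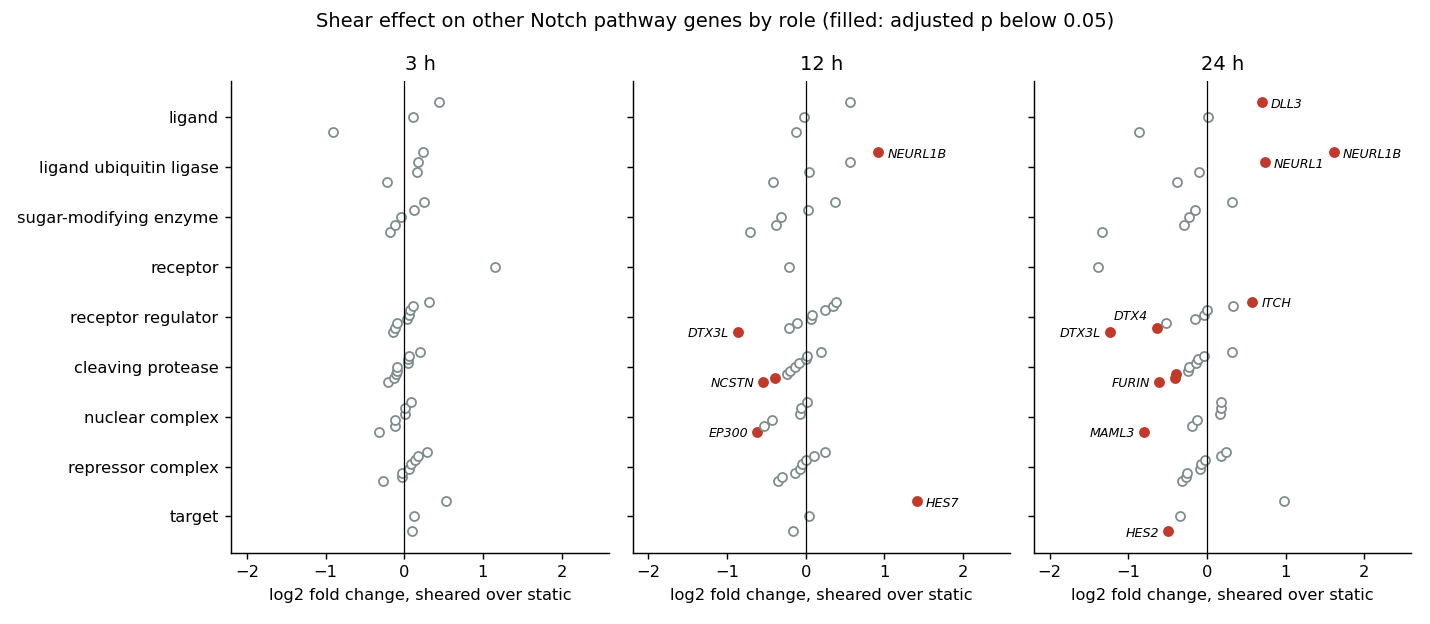
Log2 fold change of sheared over static cells (x axis) for the 47 other tested Notch pathway genes grouped by role (y axis) at 3 h, 12 h and 24 h; each point is 1 gene, filled where the adjusted p was below 0.05, with the 12 named genes labelled where they passed. No point is filled at 3 h, 6 are filled at 12 h and 11 at 24 h.

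By likeness, the 5 genes whose 9 within-pool differences (sheared minus static, log2 CPM) followed those of NRARP most closely were CGAS (Pearson r = 0.971), CHST15 (0.962), SOWAHC (0.939), SINHCAF (0.937) and RIGI (0.935). All values of a pool share its 2 libraries, so these figures only describe. Their shear effects at 3 h, 12 h and 24 h differed in size and sign: SOWAHC had log2 fold changes of 1.33, 0.30 and 0.29, close to NRARP, while RIGI had -0.35, -0.70 and -0.87.

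In the authors' deposited tables, 9 of the 10 genes had an adjusted p at each time, DLL1 having none. NRARP at 3 h (log2 fold change 1.17, adjusted p = 0.000156 in the authors' deposited table), JAG2 and HES4 at 12 h (adjusted p = 0.000604 and 0.00333 there) and HES4 at 24 h (adjusted p = 0.0182 there) were below 0.05. In the authors' deposited table HES4 at 3 h (adjusted p = 0.189) and the falls of NOTCH2 (0.0551), JAG1 (0.0991) and HEY1 (0.133) at 12 h were not.

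Some other measures also differed between sheared and static cells. At 3 h, when NRARP and HES4 rose, MALAT1, an RNA kept in the nucleus, had 14.4 to 15.1 CPM in sheared cells. In static cells it had 23.9 to 29.5 CPM. The fit did not call it (-0.82, adjusted p = 0.778, edgeR), and its part in the result was not tested. The groups overlapped for NEAT1, the other nuclear RNA examined (-0.29, adjusted p = 0.911, edgeR). NEAT1 levels at 3 h were 32.9 to 60.1 CPM in sheared and 38.5 to 65.9 CPM in static cells. The sum of 7 endothelial and fibroblast markers was 44.8 to 46.4 CPM in sheared and 26.3 to 32.7 CPM in static cells at 3 h, and at 12 h 63.2 to 79.1 CPM in sheared and 102.7 to 114.6 CPM in static cells; its part in the results was not tested. In that list 1 of 4 tested markers passed at 3 h, COL1A1 (1.19 ± 0.16, adjusted p = 0.000298), 1 at 12 h, PECAM1 (-0.67 ± 0.14, adjusted p = 0.0069), and 1 at 24 h, COL1A1, there lower (-0.48 ± 0.16, adjusted p = 0.0471), while the endothelial markers VWF and CDH5 had at most 4 and 6 counts in any library. Of the 5 epithelial markers, KRT8 rose at 12 h (0.59 ± 0.13, adjusted p = 0.0069, edgeR), and CDH1, which encodes E-cadherin, fell at 12 h (-0.51 ± 0.11, adjusted p = 0.00709) and at 24 h (-0.49 ± 0.11, adjusted p = 0.00577). The 5 markers of blood cells summed to at most 1.42 CPM.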

How the data were processed

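Whole-number counts per NCBI Gene ID for 18 libraries were used as the authors deposited them; STAR, DESeq2 and GRCh38.p13 are named in the submitters' processing notes, without versions, and the strand setting of the counting is not given in the sources used here. Columns of counts at 3 h were matched to samples by the letters that the 12 h and 24 h names share with the titles. The authors also deposited tables for each time with a log2 fold change, its p-value and adjusted p-value, which are quoted as theirs; the mean signal and the test score (Wald statistic) in those deposited tables were not used. Gene symbols and promoters came from RefSeq (GRCh38.p14), and lengths and positions from GENCODE 29 (GRCh38); 27745 of 28395 Gene IDs had a symbol and 25462 a length.

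Counts were fitted with edgeR 4.0.16 in R 4.3.3 (TMM factors, genes kept by a minimum count of 10 and a total of 15, quasi-likelihood F test) in 1 model of all libraries, with the 9 pools as a block and the shear effect estimated at each time, which leaves 6 residual degrees of freedom. Benjamini-Hochberg adjustment ran over all 15189 genes. SEs were derived from the F statistic and 95% intervals from a normal approximation. A permutation test of 3 against 3 libraries cannot go below 0.1 and was not used. The pairing is stated in the series' design text. Deviations from the group means correlated between libraries of the same number by 0.0881 to 0.299 (3 h), -0.148 to 0.245 (12 h) and 0.379 to 0.504 (24 h). Between libraries of different numbers the values were -0.242 to 0.13 (3 h), -0.385 to 0.233 (12 h) and -0.296 to -0.0924 (24 h). The ranges overlapped at 3 h and 12 h and were apart at 24 h. Times were compared (24 h against 12 h) in separate fits of 9 libraries each. The labels call the replicates biological.

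The Notch genes and the list of 52 others were chosen with earlier results of these data known. All 10 are named; of the 52, up to 12 with the smallest p among those that passed, and 5 genes most like the Notch gene with the smallest p, NRARP. Alternatives were DESeq2 1.42.0, RLE factors, no filter, no block, a fit of 1 time alone, leaving out each pool and, added after seeing the data, total counts. Promoter motifs were matched on both strands.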

Additional observations from a re-analysis of the deposited data

Results flagged for a closer look

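The shear effect at 24 h differed from that at 3 h in 4 of the 47 tested other pathway genes, by a test of the difference itself (edgeR, adjusted p below 0.05), and 5.89% of all genes passed that test. All 4 are among the 12 genes named for their shear calls, so the count supports nothing about the pathway. The difference, 24 h minus 3 h, was -1.15 ± 0.20 for DTX3L (SE, log2 scale, adjusted p = 0.0018), -0.66 ± 0.17 for FURIN (adjusted p = 0.0263), 1.38 ± 0.37 for NEURL1B (adjusted p = 0.0322) and -0.62 ± 0.17 for HES2 (adjusted p = 0.0435). DTX3L passed in all alternatives run. FURIN was lost without any 1 of the 3 h pairs, without 24 h replicate 2 and without the block. NEURL1B was lost in 7 of 14 alternatives and gave 0.93 (adjusted p = 0.172) without 24 h replicate 3. HES2 was lost in 10 of 14 alternatives, with adjusted p up to 0.326. The 3 h and 24 h libraries also carry different batch dates, so time and batch cannot be told apart in these differences.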

How the results depend on the processing

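Over all alternatives, 1002 of the values for single Notch genes kept their side of the threshold, 29 gained a call, 29 lost one and 0 reversed. Of the other named genes 1363 kept it, 27 gained, 87 lost and 0 reversed. Values kept include effects that were never called, so their number does not show how firm a call is. Of 15 alternatives, HES4 at 3 h lost its call in 8, HEY1 at 12 h in 6 and NOTCH2 at 12 h in 3. JAG1 and HES4 at 12 h each lost it in 2, and JAG2 at 12 h and HES4 at 24 h each in 1. Causes were not tested. At 3 h the number of Notch genes called was 2, and it was 1 with RLE factors, 1 with total counts, 0 without the block, 4 in a fit of the time alone, which added lower HES1 and NOTCH2, and 1 to 2 with 1 pool left out. At 12 h it was 5, with 1 without the block and 2 to 5 with a pool left out. At 24 h it was 1, with 2 by DESeq2 (HES1 added), 3 with total counts (NOTCH2 and HEY1 added, both lower), 3 without a filter (HES1 and HEY1 added), 0 without the block and 1 to 3 with a pool left out.

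Of the 47 other pathway genes, 0 were called at 3 h, but 1 without a filter and 4 in a fit of the time alone (0 to 0 with a pool left out). At 12 h 6 were called, 1 without the block, 10 in a fit of the time alone and 2 to 13 with a pool left out. At 24 h 11 were called, 4 without the block, 3 in a fit of the time alone and 5 to 12 with a pool left out. Over all genes, 222 were called at 3 h, 450 without a filter, 64 without the block, 1466 in a fit of the time alone and 80 (without 3 h replicate 1) to 446 (without 24 h replicate 3). At 12 h 1647 were called, 320 without the block and 361 (without 12 h replicate 2) to 2691 (without 24 h replicate 3). At 24 h 2612 were called, 913 without the block, 761 in a fit of the time alone and 1550 (without 24 h replicate 3) to 2880 (without 24 h replicate 2).

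For shear effects that differ between times, 0 Notch genes were called. For 12 h minus 3 h there was 1 by DESeq2 and 2 without a filter, with 0 to 2 when a pool was left out. For 24 h minus 12 h there was 1 without a filter and 0 to 1 with a pool left out. For 24 h minus 3 h there was 1 by DESeq2, 1 with total counts, 2 without a filter and 0 to 1 with a pool left out. For 24 h against 12 h, leaving out a library gave 0 to 1 in sheared cells (0 with all) and 2 to 5 in static cells (4 with all); no block applies there, because the series' design text states that times are independent.

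With 3 pools per time and 6 residual degrees of freedom, small effects could not be resolved, and DLL1, with at most 17 counts in a library, allows none but very large ones. Counts per gene do not resolve NOTCH2 from its copies, JAG1 from its antisense neighbour or JAG2 from AL512356.1 on its own strand. Levels at 3 h cannot be set against later times apart from the batch date.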
